A study of Rattus norvegicus with 12 samples.

Results

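The nuclear receptor PPAR-alpha (Ppara) and 8 of its known target genes were followed across 12 kidney arrays of male F344 (Fischer) rats. The set was chosen by name, with earlier results of these data known. It holds Ppara, Vnn1, Angptl4, Pdk4, Cpt1a, Acot1, Cyp4a1, Cyp4a2 and Cyp4a8, with every gene probe that the platform annotation or the probe description assigns to them. Of these 9 genes, 8 were named by 11 probes out of 33849 on the array, and 10 of the 11 were bright enough to be tested among 25398 probes. Cyp4a2 had no probe with its name and is not analysed here. Each array carried the kidney RNA of 1 labelled sample, 4 in each group. The young group was 4 months old and fed ad libitum. The aged ad libitum group was 24 months old and also fed freely. The aged restricted group was 24 months old on a caloric restriction of 10% from week 10 of life, 25% from week 15 and 40% from 4 months on. All rats came from an aged-rodent colony, and kidneys were removed under ketamine and xylazine anaesthesia and frozen. The labels give no fasting period and no hour of killing.

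Whole kidney was measured, so fewer cells of a type and less RNA per cell cannot be told apart. Levels below are log2 of the normalised intensity of a probe, and the level of a probe cannot be set against that of another. Between 64.2% and 69.9% of gene probes were above background on the young arrays. These shares were 71.5% to 73.7% in ad libitum and 72.5% to 74.8% in restricted kidney. The labels call the arrays of a group replicates, yet several were as alike as repeat spots of 1 array, or were linked through an array that was. Each such set was counted as 1 sample. The sets were all 4 ad libitum arrays, restricted arrays 1 with 3 and 2 with 4, and young arrays 1 with 2 and 3 with 4, so that n = 5 samples and the ad libitum group holds 1. Calls come from a limma fit over 12 arrays with Benjamini-Hochberg adjustment over all 25398 probes and a threshold of 0.05, and these p-values reflect the spread from array to array alone. Standard errors (SE) come from the same fit over 5 samples, where the spread of the other samples stands for that of the single ad libitum sample. An adjusted p printed beside an SE is from the fit over 12 arrays, not from that over 5 samples. All ad libitum arrays were scanned on a day of their own, per the file headers, so scan and group cannot be told apart in any comparison with that group. The leading digits of the slide numbers form 2 series, which no label calls a batch: series 1 holds all ad libitum arrays with restricted arrays 3 and 4, and series 2 all young arrays with restricted arrays 1 and 2. No series holds both ad libitum and young arrays, so a fit with the series as a term links these groups through the restricted arrays alone.

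PPAR-alpha is a ligand-activated transcription factor that binds DNA as a partner of the retinoid X receptor and is switched on by fatty acids, for instance those released from fat during a fast. Its targets carry fatty acids into mitochondria, oxidise them in mitochondria and peroxisomes, hydroxylate them at the omega end and spare glucose. The proximal tubule of the kidney runs largely on fatty acid oxidation and contains the receptor and many of its targets. The classical binding site, called DR1, is a direct repeat of the hexamer AGGTCA with 1 free base between the copies.

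RefSeq promoters of build GRCr8, from 250 bases before to 50 bases after the annotated start, were at hand for 7 of the 9 genes, and Vnn1 and Cyp4a1 had no entry in the table. Those of Angptl4 and Cyp4a8 are shown because, of the genes called between the diets, these 2 had the largest differences among those with an entry. Angptl4 lies at chr7:15258632-15258931 and Cyp4a8 at chr5:133970177-133970476, both on the minus strand. Each is written 5′ to 3′ on the strand of the gene. Capitals mark the 13 bases closest to DR1 on either strand, or the first such stretch found where several are equally close.
Angptl4: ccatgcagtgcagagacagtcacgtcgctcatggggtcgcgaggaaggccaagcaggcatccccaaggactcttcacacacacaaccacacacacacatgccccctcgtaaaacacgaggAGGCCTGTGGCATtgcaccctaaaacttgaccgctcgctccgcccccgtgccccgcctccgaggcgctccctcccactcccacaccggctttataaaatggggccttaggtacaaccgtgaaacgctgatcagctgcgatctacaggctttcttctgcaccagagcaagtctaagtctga
Cyp4a8: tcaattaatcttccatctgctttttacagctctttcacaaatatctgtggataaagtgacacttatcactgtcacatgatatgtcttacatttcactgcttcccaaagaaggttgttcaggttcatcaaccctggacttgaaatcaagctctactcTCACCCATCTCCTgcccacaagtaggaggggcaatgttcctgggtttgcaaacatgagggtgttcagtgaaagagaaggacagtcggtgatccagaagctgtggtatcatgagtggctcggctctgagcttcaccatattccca
In both, the capitals match 8 of the 12 fixed bases of DR1 on the opposite strand, starting at position -130 in Angptl4 and -94 in Cyp4a8 relative to the start. Ppara, Pdk4, Cpt1a and Acot1 also reached 8 of 12 at best, and none of these 6 windows held the hexamer AGGTCA on either strand. The window of Cyp4a2 held 1 hexamer and the closest match, AGTTCAGAGATAA, with 9 of 12 bases. Over all 33469 promoters of that length, 24.9% held DR1 with at most 3 mismatches and 16.2% held the exact hexamer. An exact DR1 contains the hexamer, while a match with mismatches need not, so these shares overlap only in part. The share of promoters that reach 8 of 12 bases was not counted. A match or its absence in 300 bases is a description of the letters only.

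Between 4 and 24 months under free feeding 4 of the 10 tested probes were called. Of these, 3 were higher in aged ad libitum kidney (Angptl4, Vnn1 and Cyp4a8 probe 1) and 1 was lower (Ppara probe 1). The other Ppara probe did not pass. Under array median scaling the difference of Cyp4a8 probe 1 was -0.12, and Ppara probe 1 lost its call with the slide series as a term. Over all probes 48.1% were called in this comparison, 20.9% higher and 27.1% lower, so a share of 4 in 10 lies near the background. Between the diets at 24 months 4 of 10 were called, Vnn1, Angptl4, Cyp4a8 probe 1 and Acot1, each of them lower in restricted rats. The background was 13.4% in either direction, 7.39% higher and 5.98% lower. Between aged restricted and young rats 5 of 10 were called, Ppara probes 1 and 2, Vnn1, Cyp4a1 and Cyp4a8 probe 1, again each lower, beside a background of 44.3% in either direction, 19.7% higher and 24.6% lower. Arrays of the groups did not overlap for 5, 7 and 5 of the 10 probes in the 3 comparisons, where 45.5%, 32.5% and 40.8% of all probes did not. The comparisons share arrays, since each group enters 2 of them. In the limma fit over 5 samples 0 of 10 member probes passed in each comparison, while 3, 2 and 4 of them had an unadjusted p below 0.05. That fit called 0.114% of all probes with age (0.0788% higher and 0.0354% lower), 0% between the diets and 0.91% between restricted and young rats (0.701% higher and 0.209% lower), and 17.0%, 4.75% and 23.4% had an unadjusted p below 0.05.

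**Figure D1:**
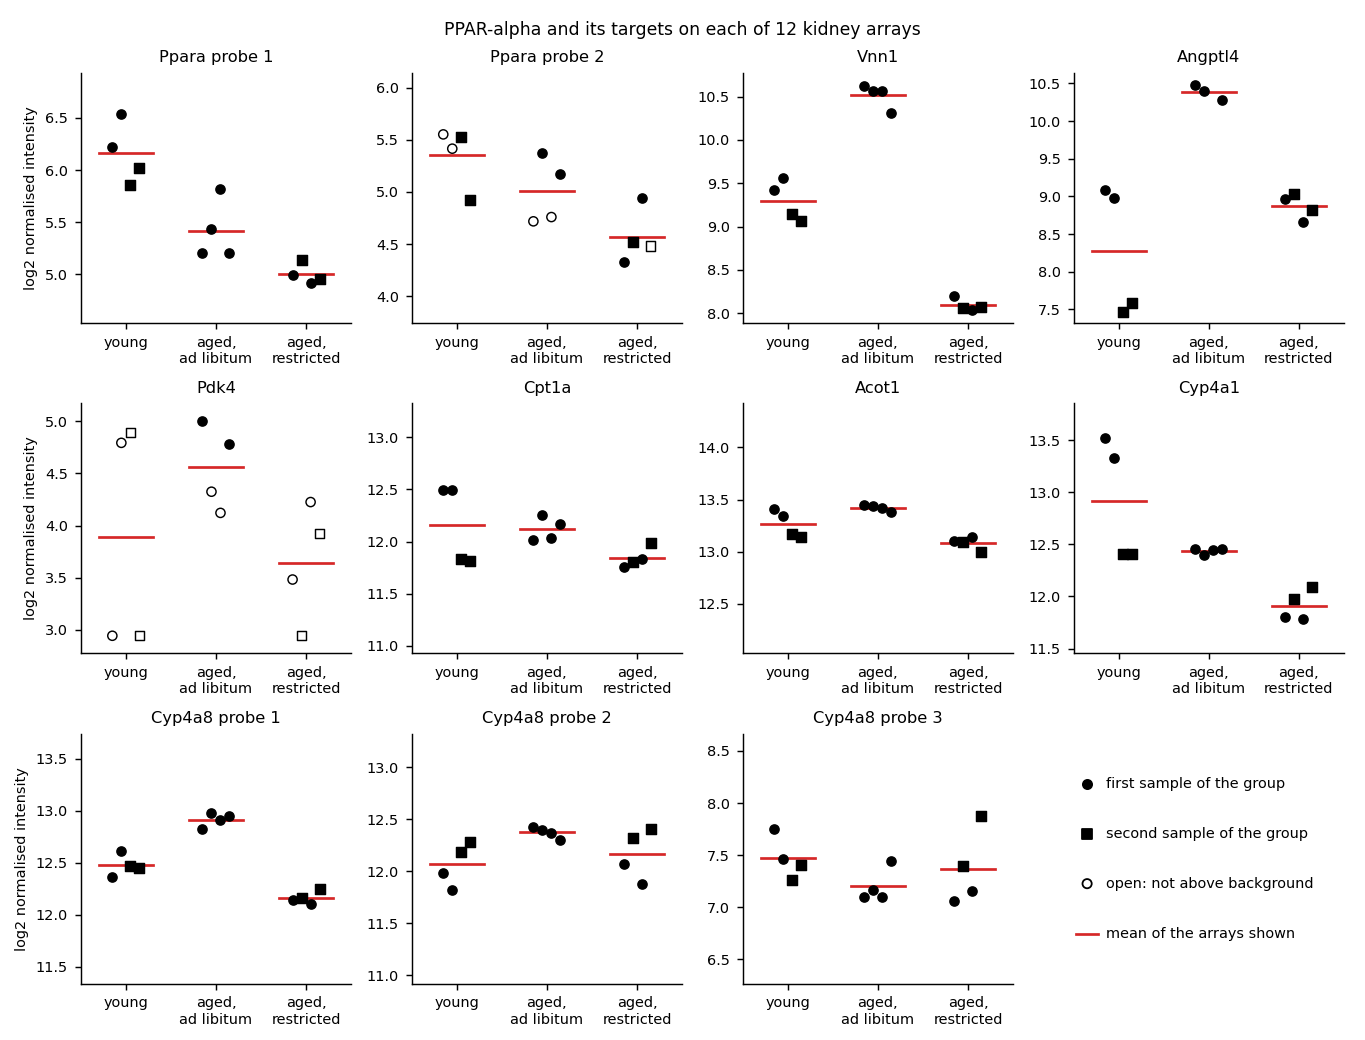
Log2 normalised intensity (vertical axis, with a scale of its own in each panel) of the 11 member probes on each of 12 arrays, in 3 groups (horizontal axis). Circles and squares are the distinct samples of a group, open symbols are values not above background, and red lines are means of the arrays shown. Vnn1 stands at 10.31 to 10.62 on the ad libitum arrays, above every young (9.06 to 9.56) and every restricted array (8.03 to 8.20).

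The receptor itself was lower in aged kidney by the first of its probes. Ppara probe 1 read 6.22, 6.54, 5.86 and 6.02 on young arrays 1 to 4. It read 5.21, 5.44, 5.81 and 5.21 on the ad libitum arrays and 4.99, 5.13, 4.92 and 4.96 on the restricted arrays. Every young array was above every aged array, with ad libitum array 3 close to young array 3, and the restricted arrays were lowest. In log2 terms ad libitum minus young was -0.74 (SE 0.26, n = 5 samples), 1.67-fold lower. The adjusted p in the limma fit over 12 arrays was 0.00332. Restricted minus young was -1.16 (SE 0.21, adjusted p = 0.000202), which is 2.23-fold lower. The change between the diets was -0.42 (SE 0.26) and did not pass (adjusted p = 0.12), although the arrays of both groups do not overlap, as is the case for 32.5% of all probes in that comparison. All 12 values were above background, yet dim. Before normalisation the intensities were 45.8, 60.5, 45.7 and 60.7 on the young arrays and 38.3, 43.4, 58.2 and 42.2 on the ad libitum arrays. The young and ad libitum arrays thus overlap before normalisation and separate only after it. With the slide series as a term of the fit the difference between ad libitum and young was -0.62 and lost its call. With 50 added to each intensity the differences from young were -0.39 and -0.57 and kept their calls. The diet difference passed when only the 2 groups entered the fit.

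Ppara probe 2 was dimmer. It read 5.55, 5.42, 5.53 and 4.92 on the young arrays, of which 2 were above background, and 4.72, 5.38, 4.76 and 5.17 on the ad libitum arrays, of which 2 were above background. On the restricted arrays it read 4.33, 4.52, 4.94 and 4.48, with 3 above background. Young array 4 overlaps with the aged arrays on this probe. Its difference between restricted and young rats was -0.79 (SE 0.18, adjusted p = 0.00672) and lost its call without restricted arrays 2 and 4 (-0.72). It was -0.30 with 50 added to each intensity. The values for ad libitum against young, -0.35 (SE 0.22), and for the diets, -0.44 (SE 0.22), had the sign of probe 1 and did not pass.

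Vnn1 encodes vanin-1, an ectoenzyme that splits pantetheine, releases the coenzyme A precursor pantothenate and is abundant on the brush border of the kidney. Its probe was made to an expressed sequence tag that the array's description gives as similar to Vanin-1. The ad libitum arrays read 10.62, 10.56, 10.56 and 10.31, the young arrays 9.42, 9.56, 9.15 and 9.06, and the restricted arrays 8.20, 8.06, 8.03 and 8.07. The 3 groups were thus in full order, ad libitum highest and restricted lowest, without overlap between any of them. Vnn1 was higher in ad libitum than in young kidney by 1.22 (SE 0.25, n = 5 samples), or 2.32-fold (adjusted p = 1.1e-05 in the limma fit over 12 arrays). In restricted kidney it fell by 2.42 (SE 0.25) relative to ad libitum, a 5.36-fold difference (adjusted p = 7.75e-07). Against young kidney its difference was -1.21 (SE 0.20, adjusted p = 1.27e-05), or 2.31-fold. Among arrays of the same slide series the diet difference was -2.46 and that between restricted and young rats -1.17. Under the settings tried its calls were lost only when arrays were joined into samples.

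Angptl4 encodes angiopoietin-like 4, a secreted inhibitor of lipoprotein lipase that rises during fasting in many tissues. It read 10.48, 10.40 and 10.28 on ad libitum arrays 1, 2 and 4, and the value of array 3 was left out for a contamination flag. Kept, that value would be 10.43. The restricted arrays read 8.96, 9.03, 8.66 and 8.82, all below the ad libitum arrays. The young arrays split: arrays 1 and 2 read 9.08 and 8.98, at the level of the restricted arrays, and arrays 3 and 4 read 7.47 and 7.58. Angptl4 was higher in ad libitum than in young kidney by 2.11 (SE 0.63, n = 5 samples), or 4.32-fold. Its adjusted p in the limma fit over 12 arrays was 0.00123. The difference was 1.36 against young arrays 1 and 2 and 2.86 against young arrays 3 and 4. With restriction Angptl4 fell by 1.52 (SE 0.63, adjusted p = 0.0236), or 2.87-fold. The call held in 17 of 28 other settings and was lost, among others, on leaving out any of restricted arrays 2, 3 and 4 or ad libitum arrays 1, 2 and 4, while the difference itself stayed between -1.65 and -1.35. Between restricted and young rats the difference was 0.59 (SE 0.52) and did not pass. It was -0.16 against young arrays 1 and 2 and 1.34 against young arrays 3 and 4.

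Pdk4 encodes pyruvate dehydrogenase kinase 4, which shuts down glucose oxidation in the fasted state. Its probe was too dim for the test. It was above background on ad libitum arrays 1 and 4 (5.0 and 4.78) and on no other array. Ad libitum arrays 2 and 3 read 4.32 and 4.12, the restricted arrays 3.48, 2.94, 4.23 and 3.92, and the young arrays 2.94, 4.79, 4.89 and 2.94, where 2.94 is the floor. The groups overlap, and no fold is given at this brightness.

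Cpt1a, the carnitine palmitoyltransferase that admits long-chain fatty acids to mitochondria, passed in none of the 3 comparisons in the fit over all 12 arrays of quantile-normalised values. It read 12.49, 12.49, 11.83 and 11.82 on the young arrays, 12.01, 12.25, 12.03 and 12.17 on the ad libitum arrays, and 11.76, 11.80, 11.83 and 11.99 on the restricted arrays. The ad libitum arrays lie between both pairs of young arrays, and every restricted array is below every ad libitum array by a narrow margin. The diet difference was -0.27 (SE 0.33, adjusted p = 0.311) and passed when only the 2 groups entered the fit. The restricted minus young difference was -0.31 (SE 0.27), but -1.01 under array median scaling and -0.99 in the authors' deposited value table, where it passed. It also passed without young array 3 (-0.42) and without young array 4 (-0.43). The difference of ad libitum from young was -0.04 (SE 0.33) over all arrays, -0.38 against young arrays 1 and 2 and 0.29 against young arrays 3 and 4, so its sign rests on which young arrays are used.

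Acot1, a cytosolic thioesterase that releases fatty acids from coenzyme A and is labelled with its older name Cte1 on the array, varied least among the called genes. It read 13.45, 13.44, 13.42 and 13.38 on the ad libitum arrays, 13.11, 13.09, 13.14 and 13.00 on the restricted arrays, and 13.41, 13.35, 13.17 and 13.14 on the young arrays. The restricted arrays stand below all others, by 0.24 from the nearest ad libitum array and by 0.0024 from the nearest young array. It fell by 0.34 with restriction (SE 0.21, adjusted p = 0.0111), a 1.27-fold difference, a call that did not hold with arrays scaled to their medians (-0.53), in the authors' deposited value table (-0.52), with the slide series as a term (-0.35), or without restricted arrays 2 and 4 (-0.30). Against young kidney it stood at 0.16 (SE 0.21) in ad libitum and at -0.18 (SE 0.17) in restricted rats, and neither passed. Under array median scaling these values became -0.47 and -0.99 and both passed, and the second was -0.98 in the authors' deposited value table, where it also passed.

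Cyp4a1 and Cyp4a8 encode fatty acid omega-hydroxylases, enzymes that in rat kidney also make 20-HETE, a vasoactive product of arachidonic acid. The Cyp4a genes lie side by side on chromosome 5 and are close relatives, so their probes may cross-hybridise and each value may hold signal of a neighbour, Cyp4a2 included. Cyp4a1 read 13.52, 13.33, 12.40 and 12.41 on the young arrays, 12.46, 12.40, 12.44 and 12.45 on the ad libitum arrays, and 11.80, 11.97, 11.79 and 12.09 on the restricted arrays. Young arrays 3 and 4 were at the ad libitum level, the other young pair stood above it, and the restricted arrays were below all others. Cyp4a1 was lower in restricted than in young kidney, with a difference of -1.0 (SE 0.38, adjusted p = 0.00465), made of -1.51 against young arrays 1 and 2 and -0.49 against young arrays 3 and 4. That call was lost without restricted arrays 1 and 3 (-0.88), and the difference was -1.74 under array median scaling. The difference between the diets was -0.53 (SE 0.46, adjusted p = 0.166) and passed when only the 2 groups entered the fit. Between ad libitum and young it was -0.48 (SE 0.46), made of -0.99 against young arrays 1 and 2 and 0.03 against young arrays 3 and 4, and did not pass. Under array median scaling it was -1.05 and in the authors' deposited value table -1.04, and passed in both.

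Cyp4a8 had 3 probes that differed in their results. Probe 1, made to an expressed sequence tag that the platform annotation assigns to the gene, read 12.83, 12.98, 12.91 and 12.94 on the ad libitum arrays. It read 12.15, 12.16, 12.10 and 12.24 on the restricted arrays and 12.36, 12.61, 12.47 and 12.45 on the young arrays. As with Vnn1, the ad libitum arrays were highest and the restricted arrays lowest, with no overlap. With restriction probe 1 fell by 0.75 (SE 0.19, adjusted p = 6.11e-05), or 1.68-fold, and relative to young kidney it fell by 0.31 (SE 0.16, adjusted p = 0.00412), a value that was -1.03 under array median scaling. Its excess of 0.44 (SE 0.19, adjusted p = 0.000453) in ad libitum over young kidney became -0.12 under array median scaling and -0.11 in the authors' deposited value table. The median of all probes under array median scaling is -0.22 in that comparison and -0.26 between restricted and young rats, beside -0.05 and -0.02 in the quantile-normalised values.

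Probe 2 of Cyp4a8 read 12.42, 12.40, 12.37 and 12.30 on the ad libitum arrays, 12.07, 12.32, 11.88 and 12.40 on the restricted arrays and 11.98, 11.82, 12.19 and 12.28 on the young arrays. It passed in no comparison, with 0.31 (SE 0.28) for ad libitum against young, -0.21 (SE 0.28) for the diets and 0.10 (SE 0.23) for restricted against young. With array median scaling the first became -0.21, and the last became -0.59 and passed. Restricted arrays 2 and 4, which form 1 sample, were above restricted arrays 1 and 3 by 0.39. Probe 3 read 7.10, 7.17, 7.10 and 7.44 on the ad libitum arrays, 7.06, 7.39, 7.16 and 7.87 on the restricted arrays and 7.75, 7.47, 7.26 and 7.41 on the young arrays, with overlap between all groups, and passed in no comparison. Which of the probes reads Cyp4a8 transcript alone was not tested, since probe sequences are not used here.

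**Figure D2:**
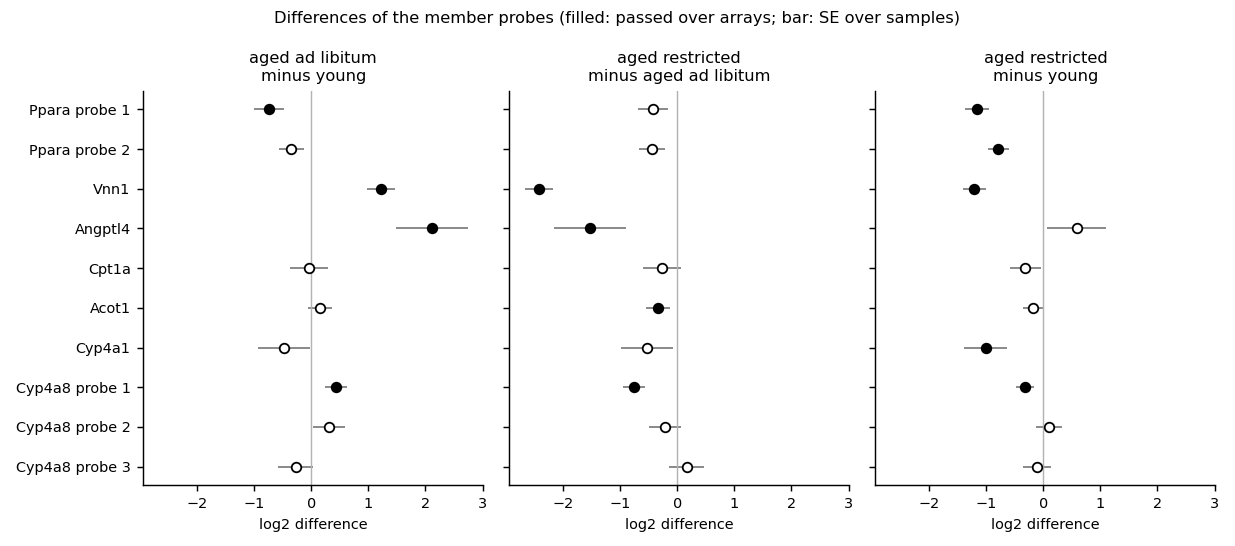
Log2 differences (horizontal axis) of the 10 tested member probes in the 3 comparisons. Points are differences of the 12-array fit, filled where the adjusted p was below 0.05, and bars are the SE over 5 samples. Each filled point of the middle panel lies left of 0, from -2.42 for Vnn1 to -0.34 for Acot1, and Cyp4a8 probe 1 in the left panel (0.44) turns to -0.12 under array median scaling.

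The 2 young samples differed on several of these genes, and the differences bear on each comparison with the young group. Young arrays 1 and 2 were above young arrays 3 and 4 on 9 of the 10 tested probes, where 55.7% of all probes were. The gap was 1.51 for Angptl4, 1.02 for Cyp4a1, 0.67 for Cpt1a, 0.44 for Ppara probe 1, 0.39 for Vnn1 and 0.22 for Acot1, and it was -0.34 for Cyp4a8 probe 2. In size the median over the 10 probes was 0.36, beside 0.32 over all probes. Cyp4a8 probe 1 differed by 0.02. The restricted samples were closer to each other, with a median size of 0.11 over the members and 0.13 over all probes. All 4 young arrays share a slide series and a scan day, per the file headers.

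**Figure D3:**
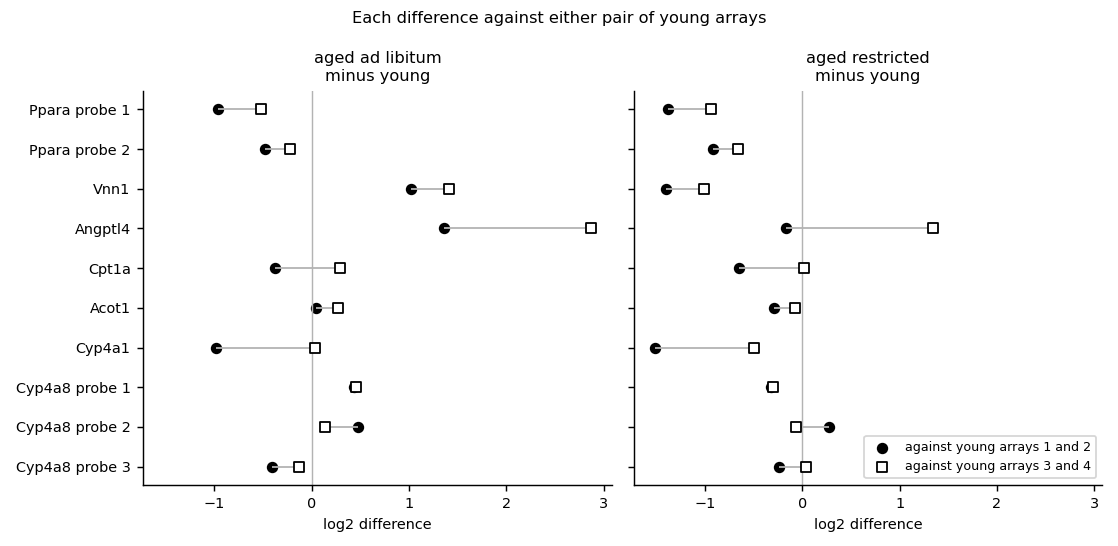
Log2 difference (horizontal axis) of each tested member probe from young arrays 1 and 2 (filled circles) and from the other young pair (open squares), for ad libitum (left) and restricted (right) kidney. For Vnn1 both symbols lie on the same side of 0 in each panel (1.02 and 1.41, -1.40 and -1.01), while for Angptl4 in the right panel they lie at -0.16 and 1.34.

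Around the members, 4 lists of genes were examined, represented by the brightest tested probe of each gene. The lists were written with earlier results of these data known. Their counts are of genes, while the shares over all probes include dimmer probes and probes without a gene name, so the units differ. The list of PPAR receptors, partners and coregulators had 19 tested genes of 24. In ad libitum against young kidney 2 were higher, 5 lower and 12 did not pass, with a median difference of -0.14 beside -0.05 over all probes, of which 48.1% were called. The counts were 1 higher and 11 lower under array median scaling, and 0 and 2 with the slide series as a term. The coactivators Ppargc1a and Ppargc1b, which drive mitochondrial and fatty acid oxidation genes together with PPAR-alpha, were among those lower. Ppargc1a read 8.07, 8.15, 7.97 and 7.85 on the young arrays, 7.39, 7.31, 7.14 and 7.15 on the ad libitum arrays and 6.88, 6.91, 7.02 and 6.81 on the restricted arrays. Like Vnn1 it had 3 groups without overlap, but with the young arrays on top. It fell by 0.76 with age (SE 0.21, adjusted p = 4.85e-05), with a second probe at -0.67 that also passed. It fell by 0.34 with restriction (SE 0.21, adjusted p = 0.0253), where the second probe stood at 0.04 and did not pass. In restricted against young kidney it stood at -1.11 (SE 0.17, adjusted p = 3.62e-06), with the second probe at -0.64. Ppargc1b fell by 0.98 with age (SE 0.20, adjusted p = 4.51e-06) and was at -1.06 (SE 0.16, adjusted p = 2.87e-06) in restricted against young kidney.

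Of the partners that were higher, the retinoid X receptor gene Rxra stood at 1.01 in ad libitum against young kidney (SE 0.63, adjusted p = 0.0363). Young arrays 1 to 3 read 7.52, 7.31 and 8.91 with no value on array 4, and the ad libitum arrays read 8.91, 9.0 and 8.87 with no value on array 2, so young array 3 overlaps with them. The coactivator Ncoa3 was higher in both aged groups, by 0.24 (SE 0.19) and 0.30 (SE 0.16). Between the diets 1 gene of this list was higher, the phosphatidate phosphatase and coactivator Lpin1 at 0.36 (SE 0.22, adjusted p = 0.0456), and 2 were lower, Ppargc1a and the liver X receptor gene Nr1h3 at -0.27 (SE 0.19, adjusted p = 0.0121). These 3 calls were lost under array median scaling and in the authors' deposited value table, where 0 genes of the list passed. The median of the list was 0.00 beside 0.01 over all probes, of which 7.39% were called higher and 5.98% lower. Between restricted and young rats 1 gene of the list was higher and 6 lower, with a median of -0.05 beside -0.02. Of all probes 19.7% were called higher and 24.6% lower there.

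The list of other PPAR-alpha targets, mostly enzymes of fatty acid oxidation, had 63 tested genes of 72. Between the diets 1 was higher, 24 lower and 38 did not pass, with a median difference of -0.27 beside 0.01 over all probes. Of all probes 7.39% were called higher and 5.98% lower between the diets. Ehhadh, the bifunctional enzyme of peroxisomal oxidation, read 11.64, 11.73, 11.57 and 11.64 under free feeding and 10.66, 10.62, 10.66 and 10.56 under restriction, a difference of -1.02 (SE 0.245, adjusted p = 0.000107). The gene that was higher was catalase (Cat), at 1.0 (SE 0.55, adjusted p = 0.0435). Other genes called lower were the mitochondrial enzymes Acadm, Acadvl, Acaa2, Hadh, Hadhb, Decr1, Eci1 and Etfdh, the peroxisomal genes Acaa1b, Hsd17b4, Pex11a, Ech1, Abcd3 and Hacl1, and the acyl-CoA synthetases Acsl1 and Acsl3. These were picked for naming after their values were seen. Under array median scaling 17 of this list were lower and 0 higher, and with the slide series as a term 13 were lower and 0 higher.

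With age 15 genes of the same list were higher and 13 lower while 35 fell short of the threshold, with a median of 0.07 beside -0.05 over all probes. Of all probes 20.9% were called higher and 27.1% lower, so the counts of the list lie near the background. Under array median scaling these counts became 8 and 24, and with the slide series as a term 4 and 4. The peroxisomal carnitine transferase Crot stood at 2.93 (SE 1.49, adjusted p = 0.0104), with 3.65, 3.38, 7.06 and 7.35 on the young arrays and between 8.23 and 8.37 under free feeding in old age. Of the young arrays 2 were not above background, and the size of the difference rests on young arrays 1 and 2. The fatty acid binding protein Fabp4, an adipocyte and capillary gene, rose by 1.62 (SE 0.20, adjusted p = 9.52e-08). The lipid droplet gene Cidec fell by 1.57 (SE 0.29, adjusted p = 3.81e-06) and the fatty acid desaturase Fads2 fell by 0.80 (SE 0.21, adjusted p = 9.14e-06), as did its second probe. Between restricted and young rats 4 genes of the list were higher and 27 lower, with a median of -0.19 beside -0.02. Of all probes 19.7% were called higher and 24.6% lower there. Among the called genes of the list Ucp2, an uncoupling protein gene, stood at 1.48 (SE 0.19, adjusted p = 1.13e-06) and Cidec at -1.75 (SE 0.23, adjusted p = 2.02e-06). Without young arrays 3 and 4 the number higher was 15 and the number lower 31.

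The list of fasting-responsive genes chosen as driven by glucagon, glucocorticoid or FOXO had 37 tested genes of 45. Whether its genes also answer to PPAR-alpha was not tested. In ad libitum against young kidney 15 genes of the list were higher and 3 lower, with a median of 0.24 beside -0.05 over all probes. The counts were 5 and 8 under array median scaling and 5 and 2 with the slide series as a term. Of all probes 20.9% were called higher and 27.1% lower in that comparison. These shares were 7.39% and 5.98% between the diets, and 19.7% and 24.6% between restricted and young rats. Between the diets 0 genes of the list were higher, 15 lower and 22 did not pass, with a median of -0.31 beside 0.01. In the same limma fit 2 genes were higher and 17 lower at an unadjusted p below 0.05. Fkbp5, a co-chaperone induced by glucocorticoid, read 12.45, 12.46, 12.28 and 12.39 on the ad libitum arrays, 10.34, 10.41, 10.40 and 10.23 on the restricted arrays and 11.05, 11.03, 10.37 and 10.21 on the young arrays. It rose by 1.73 with age (SE 0.36, adjusted p = 1.74e-05) and fell by 2.05 with restriction (SE 0.36, adjusted p = 3.24e-05), and a second probe passed in both. Serine dehydratase (Sds), an enzyme of gluconeogenesis from amino acids, rose by 1.18 with age (SE 0.41, adjusted p = 0.000746). The mitochondrial ATP-Mg carrier Slc25a25 fell by 2.37 with restriction (SE 0.41, adjusted p = 3.35e-05) and stood at -2.46 (SE 0.33, adjusted p = 4.42e-06) in restricted against young kidney. The insulin receptor Insr fell by 0.59 with age (SE 0.23, adjusted p = 0.000337), and the immediate early gene Nr4a1 fell by 0.58 (SE 0.24, adjusted p = 0.000945). In restricted against young kidney 4 were higher and 14 lower, with a median of -0.13 beside -0.02. With array median scaling these counts were 1 and 25, and with the slide series as a term 2 and 9. The cell cycle inhibitor Cdkn1a stood at 0.61 (SE 0.35, adjusted p = 0.037), ornithine aminotransferase (Oat) at 0.42 (SE 0.17, adjusted p = 0.000842) and the clock gene Per1 at -0.88 (SE 0.16, adjusted p = 1.11e-06) in that comparison. Cdkn1a read 12.22 and 12.09 on young arrays 1 and 2, within or beside the restricted range of 12.11 to 12.41, and 11.20 and 11.23 on young arrays 3 and 4. In the limma fit over 5 samples 0 genes of these 3 lists passed in any comparison. At an unadjusted p below 0.05 that fit put 0 fasting-responsive genes higher and 12 lower between the diets, and 0 higher and 5 lower of the other PPAR-alpha targets.

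**Figure D4:**
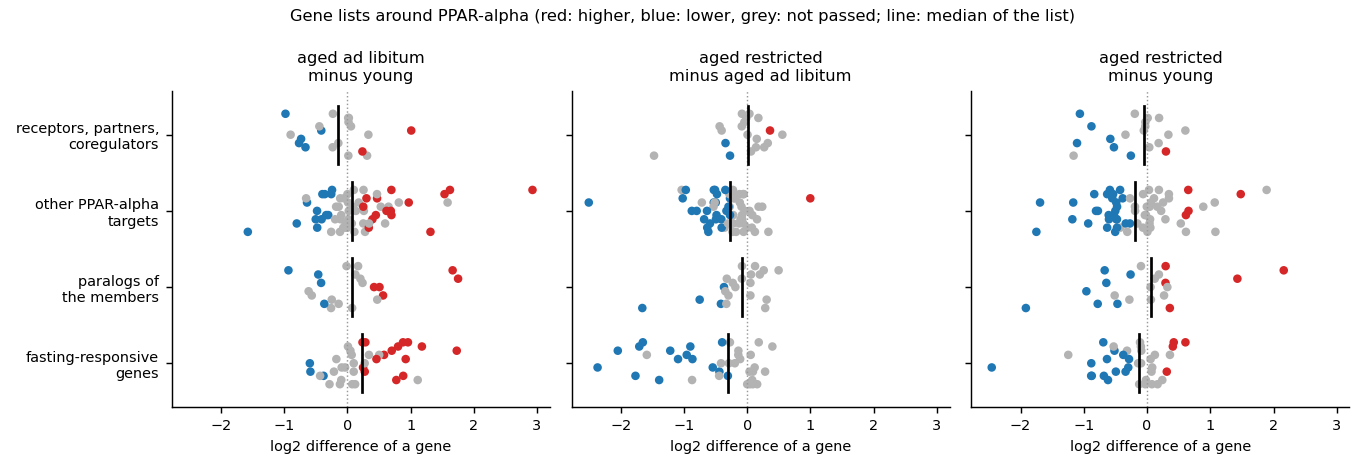
Log2 difference (horizontal axis) of each tested gene in 4 lists (rows) and 3 comparisons (panels). Red points were called higher, blue points lower and grey points did not pass, and the black line is the median of the list. In the middle panel 24 of 63 other PPAR-alpha targets and 15 of 37 fasting-responsive genes are blue, where 5.98% of all probes were called lower. The list counts are of genes, and that share is of all tested probes. The medians of these lists are -0.27 and -0.31. Their red and blue counts in the left panel change to 8 and 24, and 5 and 8, under array median scaling.

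Markers of kidney and other cell types also differed between the groups, and their part in the results above was not tested. Of 29 tested proximal tubule markers 0 were higher and 6 lower between the diets. Summed over the 23 with a value on every array, their intensity ran from 119393 to 134091 under restriction, from 149581 to 156040 under free feeding at 24 months and from 143025 to 161794 in young rats. The restricted range thus lies below both others. That sum includes the bright gene Pck1, also in the fasting-responsive list, which read 14.84 in ad libitum and 13.75 in restricted kidney on average. A proximal tubule sum without Pck1 was not made, so how far the gap rests on this gene was not tested. Of 9 thick limb and distal tubule markers 4 were higher in restricted than in ad libitum kidney and 0 lower, with sums of 60472 to 64165 against 42743 to 47173. Of all probes 7.39% were called higher and 5.98% lower between the diets. Adipocyte markers, which could enter with fat around the kidney, had 0 of 9 higher and 4 lower between the diets. Their sum without Pck1, which proximal tubule also expresses, lay between 4026 and 4159 in restricted, 5419 and 5710 in ad libitum and 6297 and 9025 in young kidney. With age 4 of the 9 were higher (Cfd, Fabp4, Lipe and Pck1) and 1 was lower (Cidec), so the sum and most called markers differ in direction. Of all probes 20.9% were called higher and 27.1% lower with age. Plin1, a defining adipocyte gene, was not above background on any array. The liver genes Alb, Ttr and Ahsg, the muscle gene Myh4 and the adrenal gene Cyp11b1 were also at background on all 12 arrays. Other markers of these tissues were bright enough to be tested. Of 8 muscle markers 4 were higher and 2 lower with age, and 0 and 2 between the diets. For 6 liver markers the counts were 1 and 1 with age and 0 and 1 between the diets. For 6 adrenal markers they were 1 and 2, and 0 and 0. Whether RNA of these tissues entered the samples was not tested. Macrophage markers summed to between 11180 and 11908 on the young arrays, 22524 and 23623 on the ad libitum arrays and 23646 and 24869 on the restricted arrays.

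The genes whose profile was most like that of a member were found as the 3 smallest root mean square differences over 12 arrays, after centring, among 9903 genes with a value on each array. This is a description, and arrays of 1 sample and of 1 group share their source. Vnn1 was closest to the clock gene Per1 (0.31), Depp1 (0.37) and Sds (0.38), where the median gene was at 1.04. Per1 read 10.21, 10.28, 10.27 and 10.21 on the ad libitum arrays, 8.48, 8.54, 8.41 and 8.47 on the restricted arrays and 9.32, 9.30, 9.44 and 9.39 on the young arrays, and shows the order of the groups seen for Vnn1. Per1 and Sds are also in the list of fasting-responsive genes. Ppara probe 1 was closest to the carnitine and cation transporter Slc22a4 (0.17), the mitotic kinesin Kif11 (0.17) and Azgp1 (0.18), with a median gene at 0.56. Cyp4a1 was closest to the angiotensin-converting enzyme gene Ace (0.13), Mlph (0.14) and the apolipoprotein gene Apoc2 (0.15), with a median gene at 0.55. Cyp4a8 probe 1 was closest to Creld2, Stra6 and Galnt13, each at 0.12, and Acot1 to Rngtt, Shq1 and Rras2, each at 0.06. Angptl4 was left out of this measure for its missing value.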

How the data were processed

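Kidney RNA of 12 samples was hybridised to 12 single-colour CodeLink whole genome arrays for the rat. Per the file headers, CodeLink Expression Analysis version 4.1.0.29054 gave each spot an intensity from which the local background was already subtracted, so values below 0 occur. The authors also deposited a value table, which is a ratio: the median-scaled intensity of a probe divided by a constant of that probe, as found from the values (33848 of 33848 probes compared, tolerance 0.01). No label or header names the statistic behind that constant.

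Saturated spots stayed in, while values flagged as contaminated, irregular or masked were left out. Quantile normalisation was run on 33849 gene probes (17100 with 1 gene symbol, 166 with several, 16583 with none), and the result was floored at 7.69 (2.94 on the log2 scale, from 256 negative control spots) and logged. A probe was tested when above background on at least 4 arrays with at least 2 values per group, which left 25398 probes. Each comparison was a two-sided moderated test from limma (version 3.58.1, R version 4.3.3; lmFit, then eBayes, without covariates), adjusted over all tested probes. An array's signal over background limits precision, as does the number of arrays. Arrays were joined into 5 samples where their differences, over 10743 bright probes, were within the limit of repeat spots. Ad libitum array 4 was within it with array 3 alone and joined through that array.

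The member genes, the gene lists and the rule for named genes were chosen with earlier results of these data known. The rule took all probes of the members, from each list the 2 called genes with the largest rise and the 2 with the largest fall in each comparison, and the 3 genes most like each called member. A gene that this rule names is not reported here. Replicate numbers of the labels did not pair the samples: deviations of arrays with the same number correlated between -0.18 and 0.15. Other settings tried are given in the closing section, and the fits were tested on simulated data.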

Additional observations from a re-analysis of the deposited data

How the results depend on the processing

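The alternatives changed the normalisation, the source of the values, the floor, the offset, the filter on dim probes, the flagged values, the covariate, the spread, the samples in the fit and the arrays left out. Over all member probes and comparisons 769 of 864 values kept their direction and their side of the threshold, 30 lost and 44 gained a call with the same direction, and 21 changed sign, most of them values that did not pass. The cause of these changes was not tested. With age 4 member probes passed, and 8 did with the slide series as a random block (whose estimated correlation was -0.15), 7 without young arrays 3 and 4 and 0 with arrays joined into samples. Calls over all probes rose too, from 12204 of 25398 to 18571 with the block and to 15980 of 25017 without young arrays 3 and 4. With restriction 4 member probes passed, and 2 did in the deposited value table, with the slide series as a fixed term (chosen after seeing the data) and without restricted arrays 2 and 4. The number was 7 without young arrays 1 and 2, without young arrays 3 and 4 and with only the 2 groups in the fit, and 0 with arrays joined into samples. Where it was 7, calls over all probes were 7616 of 24644, 7263 of 25017 and 7302 of 25398 in that order, beside 3397 of 25398. In restricted against young kidney 5 member probes passed, 8 under array median scaling and in the deposited value table, and 0 with arrays joined into samples. Leaving out each array in turn gave 4 to 7, 3 to 4 and 5 to 7 calls, with 7 in the first comparison without young array 4. With the replicate number as a replicate block the counts were 4, 4 and 5, and the numbers do not pair the samples. With age the sign changed under array median scaling and in the deposited value table for Acot1 (-0.47 and -0.46), Cyp4a8 probe 1 (-0.12 and -0.11) and Cyp4a8 probe 2 (-0.21 and -0.20). It also changed for Cpt1a without young array 1 (0.0698) or 2 (0.0705), without both (0.29) and with the slide series as a random block (0.00525), and for Cyp4a1 without young arrays 1 and 2 (0.0322). Between the diets it changed for Cyp4a8 probe 3 without restricted arrays 2 and 4 (-0.0934). In restricted against young kidney it changed for Cyp4a8 probe 2 under array median scaling (-0.59), in the deposited value table (-0.58), without restricted arrays 2 and 4 (-0.0919) and without young arrays 1 and 2 (-0.0666). There it changed too for Cyp4a8 probe 3 on leaving out single arrays (-0.27 without restricted array 4 to 0.000593 without restricted array 1), without restricted arrays 1 and 3 (0.16) and without young arrays 1 and 2 (0.0335), for Cpt1a without young arrays 1 and 2 (0.0221) and for Angptl4 without young arrays 3 and 4 (-0.16). Array median scaling put the median of all probes at -0.22, -0.06 and -0.26 in the 3 comparisons, beside -0.05, 0.01 and -0.02. Over all probes, 12204, 3397 and 11256 were called, 3901, 1479 and 7895 with the slide series as a fixed term, 18571 with age with it as a random block, and 7302 between the diets with only the 2 groups. Over 5 samples 29, 0 and 231 were called in limma, with 4327, 1206 and 5929 at an unadjusted p below 0.05. Of the counts in the gene lists 513 of 696 stayed within 1.5 times. The dim probes, Pdk4 and Ppara probes 1 and 2, are limited by their signal.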

Other observations

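Relatives of the member genes had 21 tested genes of 36, and 5 were higher, 4 lower and 12 not passed with age. With restriction 0 were higher, 4 lower and 17 not passed, and against young kidney 5 were higher and 7 lower. Under array median scaling the counts higher and lower were 4 and 8, 0 and 2, and 3 and 12, and with the slide series as a term 3 and 2, 0 and 2, and 3 and 5. The medians were 0.07, -0.09 and 0.05, beside -0.05, 0.01 and -0.02 over all probes. Of all probes 20.9% were called higher and 27.1% lower with age, 7.39% and 5.98% with restriction, and 19.7% and 24.6% against young kidney. The cytochrome P450 gene Cyp4b1, read 7.85, 7.67, 8.79 and 8.73 on the young arrays, between 9.91 and 10.08 in ad libitum and between 9.47 and 9.93 in restricted kidney. It was higher in both aged groups, by 1.75 (SE 0.47, adjusted p = 0.000143) and 1.43 (SE 0.38, adjusted p = 0.00061). Cyp4x1 was higher by 1.67 (SE 0.21) in ad libitum and by 2.16 (SE 0.17, adjusted p = 3.02e-05) in restricted against young kidney, where 1 of 4 young arrays was above background, so these sizes rest on values near background and are not bounds. That second difference also passed in the fit over 5 samples, as no other gene of the 4 lists did.

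Among the relatives of Acot1, the peroxisomal thioesterase gene Acot8 fell by 0.93 with age (SE 0.23, adjusted p = 2.79e-05). Acot12, which cleaves acetyl-CoA, read 6.22, 6.26, 6.27 and 6.32 on the restricted arrays and between 7.78 and 8.05 in ad libitum kidney, a difference of -1.66 (SE 0.39, adjusted p = 0.000299). Acot7 stood at -0.75 between the diets (SE 0.39, adjusted p = 0.0261). Pdk3, a relative of Pdk4 that could be tested, fell by 0.46 with age (SE 0.24, adjusted p = 0.00293), and Cpt1b, the muscle form of Cpt1a, stood at -0.96 in restricted against young kidney (SE 0.49, adjusted p = 0.0245). Cpt1b read 11.14 and 11.41 on young arrays 1 and 2 and 9.83 and 9.90 on young arrays 3 and 4, so that young arrays 1 and 2 were again the higher pair.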
